A study of Mus musculus with 20 samples.

Results

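AMPA and kainate receptor subunits are the proteins from which the ionotropic glutamate receptors of fast excitatory transmission are built. The transcripts of 9 genes were examined: the AMPA receptor subunits Gria1, Gria2, Gria3 and Gria4, and the kainate receptor subunits Grik1, Grik2, Grik3, Grik4 and Grik5. They were found by their gene symbols among the 37561 genes shared by all tables, and all 9 passed the filter on low values, as did 13608 genes in all. The cells were ESD3, a mouse embryonic stem cell line (strain 129s2/SvPas) kept on embryo fibroblast feeders, transduced with a short hairpin RNA whose target was luciferase for the control line and HPRT for the HPRT-knockdown line. Per the labels the hairpins were delivered by retrovirus, the study's methods name lentiviral vectors, and puromycin selection was applied to both lines. Spherical neural masses (SNM), the neural precursor aggregates made from each line, were driven toward dopaminergic neurons, and their RNA was sequenced on each day up to day 4 and on every even day from day 6 to day 14. There was 1 library per line and day (20 in all), made from pooled RNA, and each line was made only 1 time, so the tests concern the steadiness of a difference over days and say nothing of other transduced lines.

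AMPA receptors carry most of the fast excitatory current of the brain, and their properties depend on which subunits assemble. A receptor that contains the Gria2 product, whose transcript is normally edited by an adenosine deaminase, lets little calcium pass, whereas receptors without it are permeable to calcium. Kainate receptors act on both sides of the synapse and tune release and excitability. The products of Grik1, Grik2 and Grik3 can form channels by themselves, whereas those of Grik4 and Grik5 bind kainate tightly but need a partner of the former group. AMPA and kainate receptor transcripts are also found in neural precursors, astrocytes and cells of the oligodendrocyte lineage.

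The targeted gene was examined as a check of the labels. Hprt (Gene ID 15452) was lower in the knockdown library on all 10 days, with a mean log2 ratio of -4.00 ± 0.89 (SD, n = 9 days without day 6, which the study set aside as discrepant). Its normalized read count ran from 513 to 885 in the control line and from 19.7 to 137 in the knockdown line. Size factors, which stand for relative depth, ranged from 0.826 to 1.59 of the median library.

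The promoter sequences of 3 subunits are shown because they are referred to in the results: Gria2 and Grik4 had the highest mean ratios and moved together across the libraries, and Gria4 took another course. They are RefSeq windows of the GRCm38.p6 build, from 250 bases before to 50 bases after the annotated start and read along the gene. Windows were held for 6 of the 9 members (Gria2, Gria4, Grik2, Grik3, Grik4 and Grik5). Capitals mark matches, on either strand, to the NRF1 core (GCGCA, any base, then GCGC) or to the Sp1 box GGGCGG (its reverse complement included). The Gria2 window is chr3:80802786-80803085 on the minus strand, the Grik4 window is chr9:42944322-42944621 on the minus strand, and the Gria4 window is chr9:4796185-4796484 on the minus strand.
Gria2: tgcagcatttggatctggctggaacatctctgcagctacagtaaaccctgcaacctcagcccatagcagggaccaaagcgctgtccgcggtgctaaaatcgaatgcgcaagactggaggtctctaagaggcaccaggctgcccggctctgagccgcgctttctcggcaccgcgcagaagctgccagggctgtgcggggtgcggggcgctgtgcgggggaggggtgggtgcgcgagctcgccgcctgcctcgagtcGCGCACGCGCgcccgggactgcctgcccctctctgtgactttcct
Grik4: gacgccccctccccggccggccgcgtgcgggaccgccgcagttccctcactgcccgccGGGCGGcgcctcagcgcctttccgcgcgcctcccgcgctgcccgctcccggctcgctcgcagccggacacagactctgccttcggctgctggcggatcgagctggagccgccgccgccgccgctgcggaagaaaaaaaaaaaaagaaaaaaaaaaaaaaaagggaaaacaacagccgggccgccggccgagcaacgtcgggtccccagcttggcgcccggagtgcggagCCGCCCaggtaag
Gria4: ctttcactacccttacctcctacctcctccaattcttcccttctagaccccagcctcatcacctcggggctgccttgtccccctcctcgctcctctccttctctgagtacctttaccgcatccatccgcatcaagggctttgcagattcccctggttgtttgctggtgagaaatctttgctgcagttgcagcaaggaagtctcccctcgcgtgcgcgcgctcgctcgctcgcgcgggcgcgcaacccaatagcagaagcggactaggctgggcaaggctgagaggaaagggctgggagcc

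The Gria2 window held 1 NRF1 core and 26 CG dinucleotides, against a median of 7 CG dinucleotides in the 32851 windows of the table, of which 4.6% held the core. Grik4 held 2 Sp1 boxes and 42 CG dinucleotides, and 35.7% of all windows held an Sp1 box. Gria4 held neither motif, with 17 CG dinucleotides. Among the windows not shown, Grik3 held 7 Sp1 boxes and 50 CG dinucleotides at a GC content of 82.0%, Grik5 held 2 Sp1 boxes and Grik2 held none. The TATA box TATAAA, found in 13.6% of all windows, was in none of the 6. No measurement of factor binding or methylation was part of these data, so the matches describe the letters only.

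Across the 9 days tested, 5 of the 9 subunits were higher in HPRT-knockdown cells and 0 were lower: Gria2, Gria3, Grik2, Grik4 and Grik5. Of the 13608 genes tested, 26.2% were called higher and 26.3% lower by limma at an adjusted p under 0.05, and the median ratio of all genes was 0.006. The median was 0.53 over the 4 AMPA subunits and 0.35 over the 5 kainate subunits. Gria2 and Grik4 had the largest mean ratios of the family, at about 2.67-fold and 2.17-fold. Gria1 and Gria4 had ratios that ran in opposite directions over the course, and Grik3 had a late excess. Grik1 was the member with a negative mean ratio, which did not pass the test.

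Levels below are normalized reads, that is, reads recovered from the deposited values, in steps of 1/49 of a read, and divided by the size factor of the library. For Gria2 no read scale could be found, and its levels are given relative to the control library of day 0. Ratios are log2 values, knockdown over control, taken within the table of each day, which the authors normalized separately, so they can differ slightly from the quotient of the 2 levels.

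**Figure D1:**
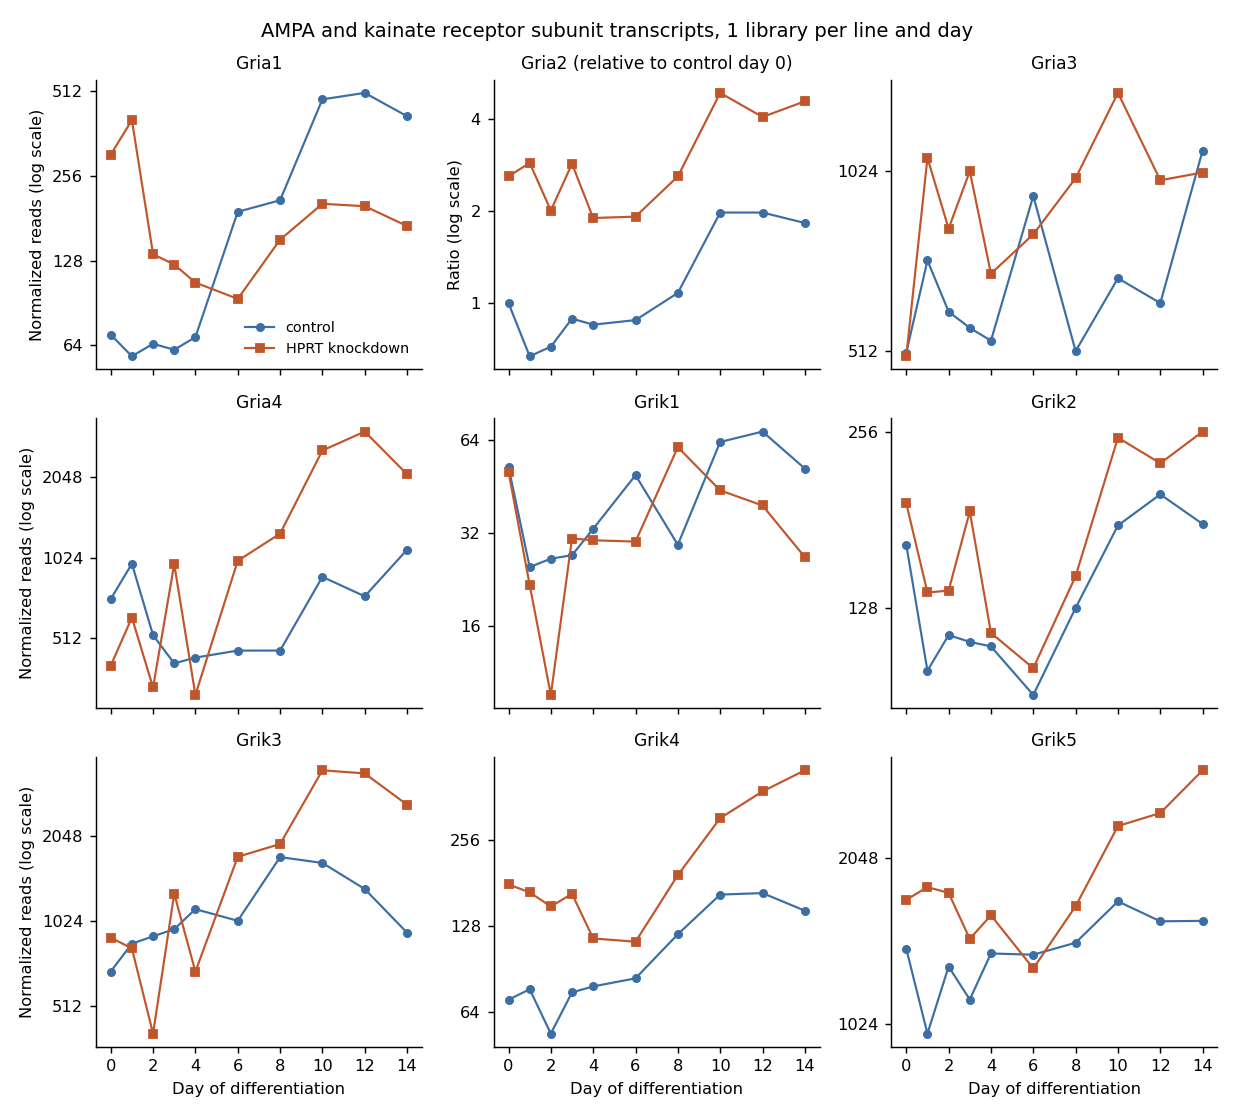
Normalized reads of each subunit (vertical axis, log scale; Gria2 relative to its control library of day 0) against the day of differentiation, with 1 point per library, circles for the control line and squares for the HPRT-knockdown line. Gria2 and Grik4 lay above the control on all 10 days, and the Gria1 lines crossed between day 4 and day 6.

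Gria2 (Gene ID 14800, NCBIM37 chromosome 3, 80488858 to 80606713, minus strand) encodes the subunit that limits calcium entry. Relative to control day 0, its level in the control line was 1.00, 0.67, 0.72, 0.89 and 0.85 on days 0 to 4, 0.88 on day 6, and 1.08, 1.98, 1.98 and 1.83 on days 8, 10, 12 and 14. In HPRT-knockdown cells it was 2.60, 2.88, 2.01, 2.86 and 1.90 on days 0 to 4, 1.92 on day 6, and 2.60, 4.88, 4.07 and 4.58 on the last 4 days. The lowest paired ratio was 1.03 on day 12, and the knockdown library was the higher on every day, although the levels of the lines overlapped between early knockdown and late control libraries. Over the course the log2 ratio averaged 1.42 ± 0.31 (SD, n = 9 days; limma adjusted p = 1.91e-05), with a ratio of 1.09 on day 6. The difference was already present at the SNM stage of day 0, at 1.39, and its slope on day was not called (-0.04 per day, limma adjusted p = 0.223). The undifferentiated stem cells were not among these libraries. It was also called from days 0 to 4 alone (1.56 ± 0.35, limma adjusted p = 0.00313) and from days 8 to 14 alone (1.24 ± 0.14, limma adjusted p = 0.0053). The Gria2 window with its NRF1 core is the one printed above.

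Gria1 (Gene ID 14799, NCBIM37 chromosome 11, 56824889 to 57143746, plus strand) encodes the subunit that is added to synapses during potentiation. Its normalized reads in the control line were 69.8, 58.5, 64.8, 61.7 and 68.4 on days 0 to 4, 191 on day 6, and 210, 480, 506 and 418 on days 8 to 14. In HPRT-knockdown cells they were 305, 405, 135, 124 and 107 on days 0 to 4, 93.6 on day 6, and 152, 204, 200 and 170 on days 8 to 14. Control cells were thus low until day 4 and rose 7.25-fold by day 12, whereas knockdown cells were highest on days 0 and 1. The log2 ratio was 2.14, 2.77, 1.07, 1.01 and 0.63 on days 0 to 4, -1.05 on day 6, and -0.45, -1.23, -1.34 and -1.29 on days 8 to 14. Every early day was positive and every day from day 6 on was negative. The mean over the course, 0.37 ± 1.53 (SD, n = 9 days; limma adjusted p = 0.523), therefore joined 2 opposite differences. The slope of the ratio was -0.28 per day (limma adjusted p = 0.00381). Taken alone, days 0 to 4 gave 1.52 ± 0.89 (limma adjusted p = 0.0176) and days 8 to 14 gave -1.08 ± 0.42 (limma adjusted p = 0.0181). The slope was 0.26 ± 0.03 (SE) per day in the control line (limma adjusted p = 0.000738) and -0.03 ± 0.04 (SE) in the knockdown line (limma adjusted p = 0.688).

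Gria3 (Gene ID 53623, plus strand of chromosome X, 38754031 to 39031778 in NCBIM37), which encodes another calcium-permeable AMPA subunit, varied less. Its normalized reads in the control line were 508, 725, 595, 559 and 532 on days 0 to 4, 930 on day 6, and 511, 677, 615 and 1108 on days 8 to 14. In HPRT-knockdown cells they were 501, 1077, 820, 1023 and 689, then 802, and then 996, 1384, 988 and 1018 on the same days. The lines were level on days 0 and 14 and the knockdown library was the higher on the 7 other days tested. The mean log2 ratio was 0.54 ± 0.41 (SD, n = 9 days; limma adjusted p = 0.00667), about 1.45-fold, and day 6 stood at -0.24. Days 0 to 4 alone gave 0.45 ± 0.32 (limma adjusted p = 0.0434), and on days 8 to 14 alone the call was lost (0.64 ± 0.53, limma adjusted p = 0.0866). No slope of Gria3 passed the test in either line.

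Gria4 (Gene ID 14802, NCBIM37 chromosome 9, 4417899 to 4796234, minus strand) encodes an AMPA subunit with fast gating that is also found in glia. Its normalized reads in the control line were 716, 971, 524, 411 and 432 on days 0 to 4, 459 on day 6, and 459, 867, 733 and 1096 on days 8 to 14. In HPRT-knockdown cells they were 403, 610, 334, 968 and 313 on days 0 to 4, 996 on day 6, and 1259, 2580, 3037 and 2101 on days 8 to 14. The knockdown line was thus the lower on days 0, 1, 2 and 4 and the higher on day 3 and from day 6 on. Over the whole course the log2 ratio averaged 0.52 ± 1.15 (SD, n = 9 days; limma adjusted p = 0.232). Days 8 to 14 alone gave 1.51 ± 0.45 (limma adjusted p = 0.0107) and days 0 to 4 gave -0.27 ± 0.86 (limma adjusted p = 0.529). The ratio of Gria4 rose by 0.18 per day (limma adjusted p = 0.0394), and this call was lost on leaving out any of 7 of the 9 days, with limma adjusted p between 0.055 and 0.116. The Gria4 window printed above held neither of the motifs marked in the other windows.

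Day 3 stood out for Gria4: its ratio was 1.24 between -0.64 on day 2 and -0.47 on day 4. Grik3 had the same shape, with 0.42 on day 3 between -1.13 and -0.74. The ratios of Gria2, Gria3, Grik1 and Grik2 were also higher on day 3 than on days 2 and 4, and those of Gria1, Grik4 and Grik5 were not. In the knockdown library of day 3 the 11 genes of the oligodendrocyte lineage list had a median ratio of 3.10, against -0.07 on day 2 and 0.49 on day 4. Over the other days that median was -0.09 and -0.06 on days 0 and 1, 1.63 on day 6, and 3.11, 5.15, 3.60 and 4.67 on days 8 to 14. The summed level of the 8 of these 11 markers with a read scale was 2603 to 10994 normalized reads in control libraries and 7169 to 67679 in knockdown libraries. Among the defining genes of the list, Mbp, a myelin protein, had a mean ratio of 2.19, which did not pass the test (limma adjusted p = 0.112), and Olig2, a transcription factor of the lineage, had 3.02 (limma adjusted p = 0.000426). The astrocyte and radial glia list also had its highest median ratio on day 3, at 1.64 against 0.91 on day 2 and 0.95 on day 4. The part of these cell types in the Gria4 and Grik3 ratios was not tested. In these bulk samples fewer cells of a type and less RNA per cell cannot be told apart.

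The kainate subunits that need a partner came next. Grik4 (Gene ID 110637, NCBIM37 chromosome 9, 42326218 to 42752576, minus strand) had 70.9, 77.1, 54, 75.2 and 78.9 normalized reads in the control line on days 0 to 4, 84.2 on day 6, and 120, 165, 167 and 145 on days 8 to 14. In HPRT-knockdown cells it had 179, 168, 150, 166 and 116, then 113, and then 193, 305, 378 and 448 on the same days. The knockdown library was the higher on all 10 days. The mean log2 ratio was 1.12 ± 0.35 (SD, n = 9 days; limma adjusted p = 9.56e-05), with 1.13 ± 0.36 on days 0 to 4, 0.39 on day 6 and 1.10 ± 0.40 on days 8 to 14. Fitted over the 9 days without day 6, Grik4 rose by 0.12 ± 0.02 (SE) per day in the control line and 0.11 ± 0.02 in the knockdown line. The slope of the ratio was 0.00 (limma adjusted p = 0.927). Within that span the courses differed: knockdown cells were lowest on days 4 and 6, whereas control cells were lowest on day 2, so the ratio passed from 1.36 on day 0 through 0.55 on day 4 to 1.63 on day 14.

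Grik5 (Gene ID 14809, NCBIM37 chromosome 7, 25794872 to 25857388, minus strand) was the most abundant subunit per length. Its normalized reads in the control line were 1400, 983, 1300, 1133 and 1373 on days 0 to 4, 1366 on day 6, and 1436, 1706, 1570 and 1573 on days 8 to 14. In HPRT-knockdown cells they were 1717, 1811, 1767, 1459 and 1610, then 1290, and then 1672, 2336, 2466 and 2947. The knockdown library was the higher on each of the 9 days tested and the lower on day 6. Its log2 ratio averaged 0.50 ± 0.26 (SD, n = 9 days; limma adjusted p = 0.00142), about 1.41-fold, with -0.11 on day 6. The counting error of a Grik5 ratio was 0.04 to 0.06, well under the spread over days.

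Among the subunits that form channels by themselves, Grik2 (Gene ID 14806, NCBIM37 chromosome 10, 48819266 to 49508572, minus strand) showed a small difference in a constant direction. Its normalized reads in the control line were 164, 100, 115, 112 and 110 on days 0 to 4, 90.9 on day 6, and 128, 177, 200 and 178 on days 8 to 14. In HPRT-knockdown cells they were 193, 136, 137, 187 and 116, then 101, and then 145, 250, 226 and 256. The ratio was positive on all 10 days, with a mean of 0.35 ± 0.22 (SD, n = 9 days; limma adjusted p = 0.00505), about 1.27-fold. The counting error of a single ratio, 0.13 to 0.21, was close to that spread. The call needed the pairing by day and was lost from an unpaired fit (limma adjusted p = 0.145), as well as from days 0 to 4 alone (0.0578) and days 8 to 14 alone (0.0683).

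Grik3 (Gene ID 14807, NCBIM37 chromosome 4, 125167944 to 125391417, plus strand) had 676, 849, 901, 955 and 1125 normalized reads in the control line on days 0 to 4, 1023 on day 6, and 1721, 1641, 1326 and 928 on days 8 to 14. In HPRT-knockdown cells it had 892, 816, 407, 1276 and 675, then 1726, and then 1915, 3498, 3409 and 2640. The lines differed most at the end, when the control fell back from day 8 to day 14 while the knockdown stayed high. The mean log2 ratio was 0.34 ± 0.90 (SD, n = 9 days; limma adjusted p = 0.324), with -0.22 ± 0.70 on days 0 to 4 (limma adjusted p = 0.533) and 1.04 ± 0.60 on days 8 to 14 (limma adjusted p = 0.0379). The slope of the ratio, 0.13 per day, did not pass the test (limma adjusted p = 0.0596), and it did so without day 0 (0.0395).

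Grik1 (Gene ID 14805, NCBIM37 chromosome 16, 87896441 to 88289947, minus strand) was at the limit of the depth. Its normalized reads in the control line were 52.4, 24.8, 26.4, 27.1 and 33 on days 0 to 4, 49.3 on day 6, and 29.3, 63.2, 68.3 and 51.8 on days 8 to 14. In HPRT-knockdown cells they were 50.6, 21.7, 9.53, 30.7 and 30.3, then 30, and then 60.8, 44, 39.3 and 26.7. The lowest library rested on 8 reads, and the counting error of a ratio was 0.26 to 0.60. The mean log2 ratio was -0.32 ± 0.73 (SD, n = 9 days; limma adjusted p = 0.255), with the knockdown library the lower on 7 of 9 days. Day 8, at 1.07, was the main exception, and without it the mean was -0.49 (limma adjusted p = 0.0493).

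**Figure D2:**
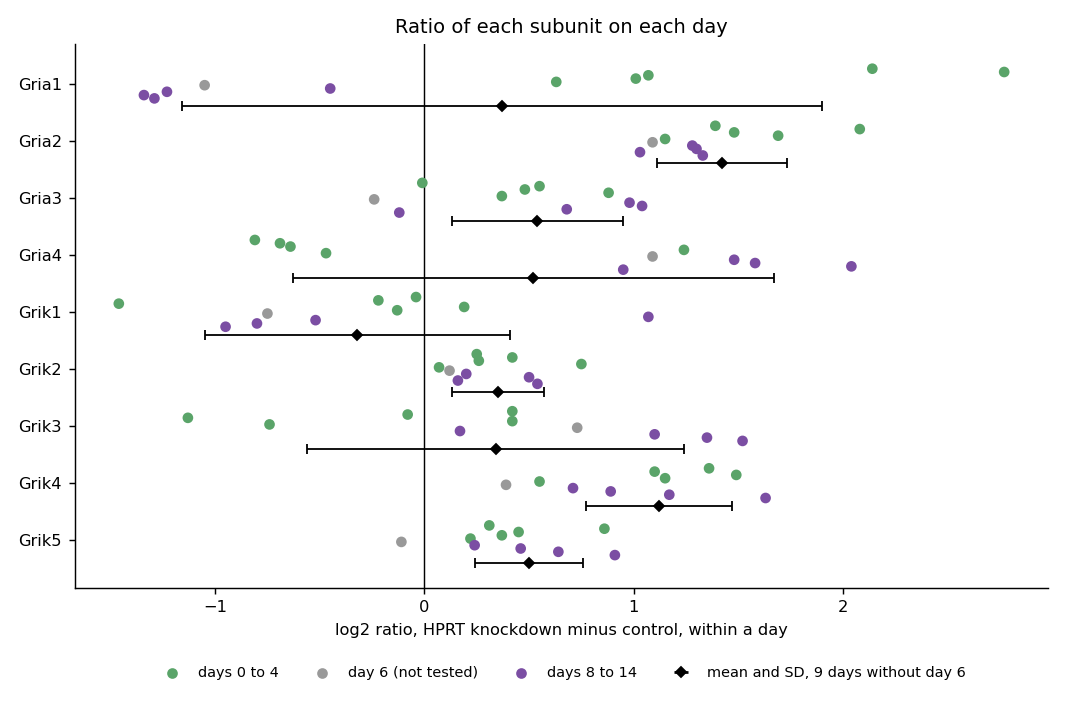
Log2 ratio of HPRT-knockdown over control (horizontal axis) for each subunit, with 1 dot per day colored by stage and, under them, the mean (diamond) and SD (bar) of the 9 days without day 6. All dots of Gria2, Grik2 and Grik4 lie above 0, and those of Gria1 fall on both sides by stage.

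Each member was also tested by flipping the signs of its 9 daily ratios in every possible way, a two-sided exact permutation test. The smallest p that 9 days allow is 0.00390625, and Gria2, Grik2, Grik4 and Grik5 reached it, with the knockdown higher on 9 of 9 days. Gria3 gave an exact p of 0.015625 with 7 of 9 days higher. The exact p was 0.48828125 for Gria1, 0.203125 for Gria4, 0.23046875 for Grik1 and 0.30078125 for Grik3. The members called were those called by limma.

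Trends within each line were fitted next, on values joined over the tables of consecutive days. In control cells 5 of the 9 subunits rose over time, Gria1, Gria2, Grik2, Grik4 and Grik5, and 0 fell. Of all genes tested, 19.7% rose and 3252 of 13608 fell. Gria1 had the steepest slope of the members, Grik4 and Gria2 followed with 0.12 and 0.10 per day (limma adjusted p = 0.00142 and 0.00343), and the slopes of Grik2 and Grik5 were 0.06 and 0.04. The calls of the last 2 were at the threshold: leaving out any of 7 of 9 days ended that of Grik2 (limma adjusted p between 0.0538 and 0.117) and any of 8 of 9 days that of Grik5 (between 0.0641 and 0.1). Grik1 gained a call without day 0 (0.108 per day, limma adjusted p = 0.00608) and Grik3 without day 14 (0.099 per day, 0.00843).

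In HPRT-knockdown cells 4 of the 9 subunits rose, Gria4, Grik3, Grik4 and Grik5, against 7.6% of all genes tested. The slopes were 0.22 per day for Gria4, 0.18 for Grik3, 0.11 for Grik4 and 0.05 for Grik5 (limma adjusted p = 0.0187, 0.0225, 0.021 and 0.0457). Without day 12 or without day 14 the calls of Gria4, Grik3 and Grik4 were lost (limma adjusted p between 0.0569 and 0.116), and that of Grik5 was lost on leaving out any of 6 days. Grik2 gained a call without day 0 (0.070 per day, limma adjusted p = 0.0494). On a scale of log2(day + 1) no member passed in this line. The slope of the ratio compares both trends directly. It rose for 1 member, Gria4, and fell for 1, Gria1, where 7.43% of all genes rose and 6.61% fell.

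**Figure D3:**
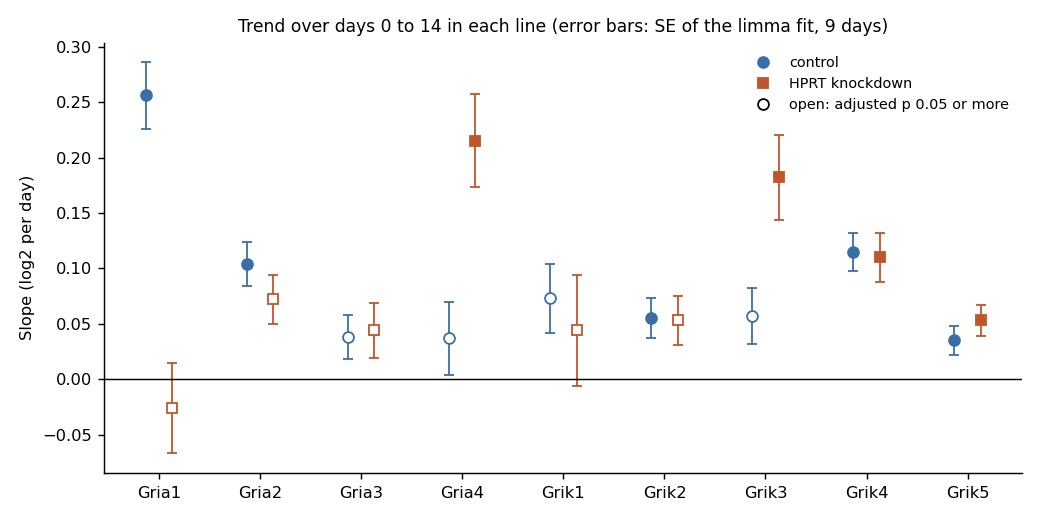
Slope of each subunit on day (vertical axis, log2 per day) in the control line (circles) and the HPRT-knockdown line (squares), with the SE of the limma fit over 9 days as bars and filled symbols for an adjusted p under 0.05. Gria1 rose by 0.26 per day in control cells against -0.03 in knockdown cells, and Gria4 rose by 0.22 per day in knockdown cells against 0.04 in control cells.

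Levels were compared between subunits as normalized reads per kilobase of annotated exon (NCBIM37), over the 8 members with a read scale. In control cells Grik5 was the highest, with 256 to 445 per kilobase and a median of 362, and it exceeded Grik3 (median 110) on 10 of 10 days. Gria4 and Gria3 followed with medians of 98.9 and 61.4, and then Gria1, Grik2, Grik4 and Grik1 with 21.5, 14.7, 13.8 and 12.4. Several neighbors in this order did not differ beyond their spread: the log2 difference was 0.25 ± 0.72 (SD, n = 10 days) for Grik3 over Gria4, 0.59 ± 1.10 for Gria1 over Grik2 and -0.03 ± 0.40 for Grik2 over Grik4. Gria2 was at most 41.2 per kilobase in the control library of day 0 and at most 81.8 on its highest control day, from the rounding of the deposited values.

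In HPRT-knockdown cells Grik5 was again the highest per kilobase, with 336 to 768 and a median of 454. Grik3 and Gria4 had medians of 167 and 157 and did not differ beyond their spread (0.05 ± 0.34 on the log2 scale, SD, n = 10 days). Grik4, with a median of 29.4, stood above Gria1 (26.7) on 8 of 10 days, and their difference of 0.25 ± 0.76 was within its spread. By its median Grik1 was the lowest in both lines, with 2.86 to 18.3 per kilobase in this line. It was not the lowest on every day: Grik4 stood above it on 8 of 10 days in control cells, a log2 difference of 0.45 ± 0.45. In knockdown cells Grik2 stood above it on 9 of 10 days.

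From day 0 to day 14, the levels of Gria4 and Gria3 relative to Gria1 moved in opposite directions in the lines. Gria2 had no read scale and was left out. Per kilobase, Gria4 was 9.87 times Gria1 in the control library of day 0 and 2.53 times on day 14. In HPRT-knockdown cells the same quotient went from 1.27 on day 0 to 11.9 on day 14. Gria3 went from 4.46 to 1.63 times Gria1 in control cells and from 1.00 to 3.66 times in knockdown cells. The courses between were not steady. In control cells Gria4 was 16 times Gria1 on day 1 and 1.4 times on day 12. In knockdown cells Gria3 was 5.07 times Gria1 on day 3 and 3.02 times on day 12. These quotients also carry the change of Gria1 itself. Among the kainate subunits Grik5 held 61.3% to 74.8% of the summed level per kilobase in control libraries and 55.7% to 83.6% in knockdown libraries. The share of Grik3 was 15.4% to 31.4% in control and 8.23% to 35.6% in knockdown libraries, and that of Grik4 was 1.94% to 4.48% and 3.35% to 6.43%. The kainate sum rose from 488 to 575 per kilobase between days 0 and 14 in control cells and from 616 to 1177 in knockdown cells.

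The members were then set beside the genes that work with them, in lists written by hand. The counts of each list stand against 26.2% of all genes tested called higher and 26.3% called lower. No list was tested as a set. Grid1, which encodes a delta subunit, a relative of the family that forms no glutamate-gated channel, was higher in HPRT-knockdown cells (mean ratio 0.49 ± 0.39, SD, n = 9 days; limma adjusted p = 0.00845), a call lost on days 8 to 14 alone (0.31, limma adjusted p = 0.100). The AMPA auxiliary subunits steer trafficking and gating. Of the 12, 11 were tested, 5 were higher and 1 was lower, with a median ratio of 0.52. The highest of those called was Shisa9 at 1.00 ± 0.50 (limma adjusted p = 0.000703), which was not called on days 8 to 14 alone (0.61, limma adjusted p = 0.0732). The lowest was Cacng2, which encodes stargazin, at -3.09 ± 2.64 (limma adjusted p = 0.00847), whose values differed by up to 0.124 between tables and which was not called on days 0 to 4 alone (-1.45, limma adjusted p = 0.200). Cacng2 rose in control cells by 0.27 per day (limma adjusted p = 0.000346), as Gria1 did.

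The kainate auxiliary subunits Neto1 and Neto2 slow receptor gating. Neto1 was higher, with a mean ratio of 1.36 ± 1.11 (SD, n = 9 days; limma adjusted p = 0.00727), and its ratio rose by 0.19 per day (limma adjusted p = 0.0133). On days 0 to 4 alone it was not called (0.53, limma adjusted p = 0.153). Neto2 had 0.33 ± 0.52 (limma adjusted p = 0.112; 0.42 without day 14, 0.0449), and its ratio fell by 0.08 on the log2 scale per day (limma adjusted p = 0.0384). The difference of these 2 trends was not tested.

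Of 15 scaffolds and trafficking partners 14 were tested, with 2 higher, 3 lower and a median of -0.18. Both counts were under the shares of all genes tested, 26.2% higher and 26.3% lower. Dlg4, which encodes the postsynaptic scaffold PSD-95, was the highest of those called at 0.70 ± 0.54 (SD, n = 9 days; limma adjusted p = 0.00643), and Homer2, a scaffold of metabotropic receptors, the lowest at -0.73 ± 0.34 (limma adjusted p = 0.000618). On days 8 to 14 alone Dlg4 was not called (0.27, limma adjusted p = 0.239). Among the 3 neuronal pentraxins, proteins that cluster AMPA receptors, Nptx1 was higher at 0.93 ± 1.04 (limma adjusted p = 0.0306). That call was lost on leaving out any of 6 of the 9 days. Nptx2 and Nptxr had 0.16 ± 1.23 and 0.13 ± 0.87. Without the pairing by day, with day 6 kept or on days 8 to 14 alone (0.36), Nptx1 was not called either (limma adjusted p = 0.208, 0.145 and 0.442). Among the 3 genes listed for RNA editing, Adarb1, whose product edits the Gria2 transcript, was higher at 0.41 ± 0.28 (limma adjusted p = 0.00524). Its relative Adarb2 was lower at -1.03 ± 1.00 (limma adjusted p = 0.0166). Adar had -0.13 ± 0.31 (limma adjusted p = 0.33), or -0.23 without day 0 (0.00833). On days 0 to 4 alone neither Adarb1 (0.28, limma adjusted p = 0.0669) nor Adarb2 (-0.59, 0.303) was called, and Adarb2 also lost its call without the pairing by day (0.087). Editing itself was not measured in these tables.

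On the presynaptic side, 6 of 7 genes of glutamate loading and supply were tested. Of these, 4 were lower and 0 higher (26.3% and 26.2% of all genes tested), with a median of -0.57. Slc17a6, the vesicular glutamate transporter VGLUT2, was the lowest at -2.98, with daily ratios from -5.35 to -0.21 (limma adjusted p = 0.00139), and the glutamine transporter Slc38a2 was the least lowered of those called at -0.55 ± 0.49 (SD, n = 9 days; limma adjusted p = 0.0131). The ratio of Slc38a2 rose by 0.09 per day (limma adjusted p = 0.0146), and on days 8 to 14 alone it was -0.11 and not called (limma adjusted p = 0.515). The median of this list and those of the receptor subunits therefore had opposite signs.

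**Figure D4:**
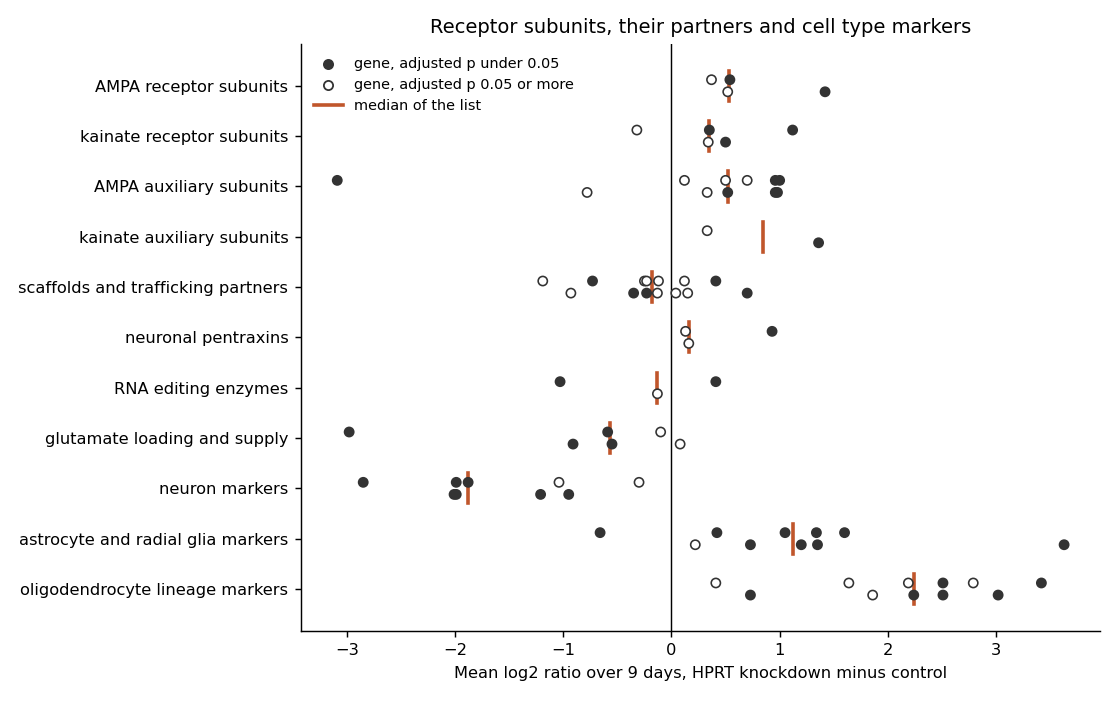
Mean log2 ratio over 9 days (horizontal axis) of each tested gene by list, filled where the adjusted p was under 0.05, with the median of each list as a vertical bar. The medians of the AMPA and kainate subunits were 0.53 and 0.35, those of the neuron and oligodendrocyte lineage markers -1.88 and 2.24.

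Cell type markers were counted in the same way, against 26.2% of all genes tested called higher and 26.3% called lower. Of the 11 neuron markers 9 were tested, 7 were lower in HPRT-knockdown cells and 0 higher, with a median ratio of -1.88. Rbfox3 was under the filter and Map2 was not matched by its symbol. The summed level of the 6 neuron markers with a read scale was 7181 to 17066 normalized reads in control and 3076 to 8894 in knockdown libraries. Of the 10 astrocyte and radial glia markers 8 were higher and 1 lower (median 1.12), with a sum over 7 of them of 8459 to 17283 in control and 8146 to 26676 in knockdown libraries. Of the 11 oligodendrocyte lineage markers 6 were higher and 0 lower (median 2.24). All 8 pluripotent cell markers were lower (median -2.71), with a sum over 5 of them of 2329 to 8004 in control and 277 to 7466 in knockdown libraries. Of the 8 feeder fibroblast markers 3 were lower and 0 higher (median -0.53), with a sum over 3 of them of 1589 to 14988 in control and 1146 to 5258 in knockdown libraries. Of the 6 microglia markers none passed the filter, and Cx3cr1 and Tyrobp had no reads. Gria2, Gria3, Grik2, Grik4 and Grik5 were thus higher in the line in which neuron markers were lower and glial markers higher. The part of these cell types in the subunit ratios was not tested.

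The genes whose profiles were most like each subunit were named by Pearson correlation of log2 values over 18 libraries (both lines, without day 6), which share lines, days and normalization, so the correlations are descriptions only. Gria2 was closest to Ppp2r2b and Astn1 (r = 0.965 and 0.962) and Grik4 to Ntrk3 and Evi5l (0.970 and 0.969). Grik5 was closest to Slc22a17 and Usp30 (0.950 and 0.942), Gria1 to Magee1 and Csdc2 (0.948 and 0.940), and Gria4 to Pknox1 and Cldn11 (0.936 and 0.934), the last of which encodes a myelin tight junction protein. Grik2 was closest to Sept5 and Nlgn2 (0.931 and 0.923), the latter a postsynaptic adhesion molecule, and Grik3 to Srcin1 and Shisa7 (0.929 and 0.925), the latter in the list of AMPA auxiliary subunits. The likeness was weaker for Gria3, with Acvr1 and Crot (0.910 and 0.906), and for Grik1, with Fam117b and Tmem178 (0.846 and 0.841). Among the subunits themselves the closest pairs were Gria2 with Grik4 (0.934) and Grik4 with Grik5 (0.909), and Grik1 with Gria3 had -0.068.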

How the data were processed

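Whole transcriptome RNA-seq was analyzed in 20 libraries, 1 per line and day, grouped by the labels. Per the study's methods, reads of 50 cycles were aligned by the authors to NCBI37/mm9 with CASAVA 1.8.2, and gene values were made by the authors in Avadis NGS with the DESeq algorithm. The kit was not described as marking strand, and the libraries ran in 4 lanes, but which ran in which lane is not given in the sources used here. The authors deposited 28 tables of 2 libraries each with log2 values centred on the mean of the pair, so that a table gives a log2 ratio: 10 tables set control beside knockdown on a day, and 9 tables per line join consecutive days. Values at or below 1 normalized count entered as a log2 of 0.

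The design had foreseen another unit with a pseudocount. Levels were instead read from the rounding of the deposited values: a gene passed where its typical normalized count was 4 or more on the log2 scale (13608 of 19041 genes with reads), and 8248 passed at 8. Reads per library were recovered by finding the scale on which a gene's joined values become multiples of 1/49 of a read, which gave a scale for 8 of the 9 members. Of their 160 library values 156 fell on such multiples, but the scale was chosen to give them. A gene also needed at least 14 libraries on multiples. The values so scaled fell on multiples for divisors of 47, 50 and 51 in 56, 57 and 59 cases. No search was run with these divisors, so the counts cannot test the step of 1/49. Of 212 rounding steps 0 were finer than the level allows, and rounding had also set an upper limit in the search. On simulated tables the scale was found for 47 of 48 genes and all 20 libraries were right for 46. These tables were drawn from the recovered levels in steps of 1/49 of a read, without disagreement between tables. They show that the search finds such a scale where it exists, and cannot test the step itself. Counting errors cover counting only, and library totals were not used.

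Per-day ratios were tested over 9 days with limma 3.58.1 in R 4.3.3, with Benjamini-Hochberg adjustment over all 13608 genes and a threshold of 0.05, after a test on simulated data. Both libraries of a day were paired by the day of differentiation given in the labels, which do not say whether the lines were grown or collected together. Slopes on day were fitted with limma to the ratios and to the joined values of each line. The control step from day 3 to day 4 is at odds with the other tables, so that step was also taken through the knockdown tables. With it 5791 genes were called by the control slope and 5 members rose, as with the direct step. The control slopes and the correlations given above use the direct step. Days are successive collections of a line and not separate cultures. The limma and exact tests treat the days as independent, and dependence between days would make their p-values too small. They concern these samples only. Day 6 was described and not tested.

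The members and lists were chosen with earlier results of these data known. Named were all members, Hprt, the highest and lowest called gene of each partner list, the genes of lists of 3 or fewer (1 is not reported here), and the 2 genes most correlated with each member. Mbp, Olig2, Rbfox3, Map2, Cx3cr1 and Tyrobp, from the marker lists, were named after their values were seen. Coordinates and exon lengths come from the NCBIM37 annotation, to which all 9 members matched, and promoter windows from RefSeq. Alternatives were other filters, stages, centring, a rebuilt ratio, an unpaired fit, an exact test, log2(day + 1), day 6 kept, days at the floor left out and each day left out. A single set of size factors was added after seeing the data.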

Additional observations from a re-analysis of the deposited data

Results flagged for a closer look

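The time trends of Gria1 and Gria4 differed between the lines by a test of the difference itself. For Gria1 the slope of the ratio on day was -0.28 (limma adjusted p = 0.00381), with every day up to day 4 positive and every day from day 6 on negative. For Gria4 it was 0.18 (limma adjusted p = 0.0394), with the knockdown higher on day 3 and from day 6 on. The Gria1 slope passed on leaving out each of the 9 days in turn, with values between -0.32 and -0.25, and that of Gria4 on leaving out day 3 or day 14. A search for a single distant day among the 10 daily ratios of each member and of Hprt found none, the largest gap to the next day being 0.378 of the range, for Gria2.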

How the results depend on the processing

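Genes called by their mean ratio numbered 7141, by the slope of the ratio 1911, and by the slope in the control and knockdown lines 5933 and 1786. Days 8 to 14 alone gave 4377 by mean ratio, with 1 member lower (Gria1) and 5 higher: Gria4 and Grik3 were called there and Gria3 and Grik2 were not. Of 13608 genes 2296 were higher there and 2081 lower. Days 0 to 4 alone also gave 5 higher, with Gria1 called and Grik2 not, where 2832 of 13608 genes were higher and 2883 lower. Keeping day 6 gave 1066 by the slope of the ratio. On log2(day + 1), 3929 genes passed in the control line and 127 with 0 members in the knockdown line. With the stricter filter 5 members were tested: 3 were higher, the ratio rose for 2 and fell for 0, and 2 rose in the control line. Of its 8248 genes 2361 were higher, the ratio rose for 1022 and fell for 579, and 1495 rose in the control line. Without the filter the ratio rose for 0 members and 3 rose in the control line, against 987 and 3213 of 19041 genes. Leaving out each day gave 6254 to 7265 genes by mean ratio, 605 (without day 12) to 1657 by the slope of the ratio, 4621 to 6267 in the control line and 171 (without day 14) to 2959 (without day 0) in the knockdown line. It gave 5 to 5 members higher and 0 to 1 lower, 5 to 6 by the exact test, 0 to 1 with a rising and 1 to 1 with a falling ratio, 3 to 6 rising in the control line and 0 to 5 in the knockdown line. Without the pairing by day (no replicate block) 5699 genes were called, 2910 higher and 2789 lower, with 4 members higher (Grik2 was lost) and 0 lower. The stricter filter tests fewer genes and the smaller sets of days use fewer libraries. The cause of all these changes was not tested.

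Signs turned for Gria1 (-1.08), Neto2 (-0.11), Nptx2 (-0.87) and Nptxr (-0.51) on days 8 to 14 alone, for Gria4 (-0.27), Grik3 (-0.22) and Adar (0.01) on days 0 to 4 alone, and for the slope of the Grik4 ratio (-0.038) on log2(day + 1). When 1 day was left out, signs turned among slopes near 0 that were not called (Gria1 -0.039 to 0.006 in the knockdown line, and slopes of the ratio of -0.014 to 0.052 for Gria3, -0.056 to 0.001 for Grik1, -0.007 to 0.011 for Grik2, and -0.027 to 0.015 for Grik4) and for the mean ratios of Nptx2 (-0.10 to 0.39) and Nptxr (-0.06 to 0.27). The single set of size factors changed 1 call, the control slope of Grik5 (0.034, limma adjusted p = 0.0535). Depth limits Grik1 most.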
